A study of Mus musculus with 16 samples.

Results

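In all, 10 genes of the circadian clock were followed across 16 arrays of primary mouse mammary fibroblasts. They were taken by gene symbol, PER1, PER2, PER3, CRY1, CRY2, ARNTL, CLOCK, NR1D1, NR1D2 and DBP, and all 10 names had a row among the 18132 genes of the table. The fibroblasts came from the inguinal mammary glands of female 129S6 mice of 8 to 10 weeks, either MEKK1+/+ or lacking the kinase MEKK1, which the gene MAP3K1 encodes. They were kept in growth medium with serum (untreated) or given conditioned medium (CM), the same kind of medium after culture with MDA-MB-231, a line of human breast cancer cells, for 8 h. Each of the 4 combinations of genotype and medium had 4 arrays, each made from a culture, and the study drew its cultures of a genotype from fewer mice than there were cultures, without naming the mouse behind each. The p values therefore measure the spread between cultures, part of which may be technical. The comparisons ask whether CM changes these genes and whether the change depends on MEKK1. The 4 groups include no medium conditioned by other cells. Soluble factors of tumor cells can therefore not be told apart from effects of changing the medium or of its use by cells.

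The mammalian clock is a feedback loop of transcription that runs in nearly every cell, fibroblasts included. CLOCK and ARNTL (also called BMAL1) form a dimer that binds E-box sequences and switches on the PER and CRY genes, whose proteins return to the nucleus and block the dimer. The same dimer drives NR1D1 and NR1D2 (REV-ERB alpha and beta), nuclear receptors that repress ARNTL through ROR response elements, and DBP, a transcription factor that acts on D-box sequences of output genes. Serum, glucocorticoids and cAMP signals act quickly on PER1 and can shift or synchronize the loop in cultured fibroblasts. All arrays were taken at 8 h, and neither the hour of collection nor any synchronization of the cultures is given in the sources used here, so a shift in phase, a change in amplitude and a change in level cannot be told apart. Nor can fewer expressing cells be told apart from less RNA per cell in such bulk samples.

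The deposited values are array intensities on a linear scale, here taken to log2 and quantile normalized between arrays, and all levels below are on that normalized log2 scale. The median deposited intensity of an array ran from 114 to 170.1, and all 4 arrays of MEKK1+/+ cells with CM (114 to 122) were dimmer than 3 of the 4 untreated MEKK1+/+ arrays (152 to 167). The gene targeted in the mice, MAP3K1, showed no lower level on arrays labelled MEKK1-/-: in untreated cells it ran from 8.06 to 8.41 there and from 7.51 to 7.95 on MEKK1+/+ arrays, a difference of 0.53 (limma, adjusted p = 0.465). Where its probe lies relative to the deleted part of the gene is not given in the sources used here, and genotypes are therefore named as labelled. Of 11 fibroblast markers, 10 were detected on every array, that is, brighter than the 99th percentile of 1075 olfactory receptor genes, taken as the level without signal, and the median change of the 11 with CM was 0.34 in MEKK1+/+ and 0.37 on arrays labelled MEKK1-/- (1 called in each), whose part in the clock gene changes was not tested. Of 17 macrophage markers, 8 were detected on every array and ITGAM, CD163 and MSR1 on none. The summed intensity of the 17 ran from 12635 to 43280 (median 29200) in untreated and from 11711 to 35044 (29072) in CM-treated MEKK1+/+ cells, against 5488 to 29044 (9870) and 5870 to 26621 (10451) on arrays labelled MEKK1-/-. The genotype comparisons of the clock genes thus run beside a difference in macrophage markers, whose part in them was not tested, while the median change of these markers with CM was -0.03 and -0.02. Over 10 epithelial markers, 2 of them detected on every array, the median difference between genotypes was 0.41 untreated and 0.33 with CM. Their sums ran from 1487 to 11720 (median 1993) and from 1462 to 10589 (1671) on arrays labelled MEKK1-/-, against 1310 to 1523 in MEKK1+/+. Over 7 endothelial markers, 0 of them detected on every array, it was 0.14 in both media. Of the macrophage, epithelial and endothelial markers 0 were called between genotypes in either medium, where 0% (untreated) and 0.00552% (CM) of all genes were. The part of these markers in the genotype comparisons was not tested. The summed intensity of 7 fat cell markers ran from 9479 to 14266 untreated and from 5292 to 10835 with CM in MEKK1+/+ cells. On arrays labelled MEKK1-/- it ran from 4180 to 13961 and from 4700 to 7294. ADIPOQ, FABP4, LEP, PLIN and CIDEC were detected on none, and the median changes with CM were 0.01 and -0.04. With CM 0 of the 7 were called in MEKK1+/+ and 1 on arrays labelled MEKK1-/- (5.01% and 4.69% of all genes). The part of fat cell markers in the changes with CM was not tested.

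Of the 10 clock genes, 8 were detected on every array. PER3 and CRY1 were at or below the level without signal on all 16, so that a change in them was not detectable at this signal.

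To place the genes in the genome, RefSeq promoters (GRCm38.p6) were searched for sequences through which the clock acts. The search covered both strands of the 250 bases before each transcription start at hand. RefSeq promoters were at hand for 9 of the 10 genes, with 13 starts in all, and PER2 was not among them. ARNTL, PER1 and CLOCK reach further upstream than the windows searched, so any start there was not covered. ARNTL, for example, begins at chr7:113178471 and its first window at chr7:113207215. The motifs were the E-box CACGTG, its variant CACGTT, the D-box TTATGTAA, the core of the ROR response element AGGTCA and the cAMP response element TGACGTCA, none of which overlaps another as found here. The promoters of 4 genes are printed because they belong to genes whose expression changed with CM and span an E-box, its variant and no motif. Capitals mark the motif letters on the strand of the gene, 5′ to 3′, and AACGTG and TGACCT are the variant and the ROR core read from the other strand. PER1 (start 1) lies at chr11:69098699-69098948 on the plus strand, CRY2 at chr2:92434070-92434319, NR1D1 at chr11:98775378-98775627 and CLOCK (start 1) at chr5:76304793-76305042, the last 3 on the minus strand.
PER1: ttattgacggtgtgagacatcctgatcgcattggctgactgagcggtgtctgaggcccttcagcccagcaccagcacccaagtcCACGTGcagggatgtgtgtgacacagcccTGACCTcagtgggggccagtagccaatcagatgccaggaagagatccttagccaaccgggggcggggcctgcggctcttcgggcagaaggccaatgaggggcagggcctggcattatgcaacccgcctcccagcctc
CRY2: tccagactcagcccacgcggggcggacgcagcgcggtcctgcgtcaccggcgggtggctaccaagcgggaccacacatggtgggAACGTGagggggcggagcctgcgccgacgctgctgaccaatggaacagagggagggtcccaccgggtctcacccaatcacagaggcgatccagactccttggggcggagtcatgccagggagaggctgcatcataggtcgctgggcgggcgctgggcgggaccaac
NR1D1: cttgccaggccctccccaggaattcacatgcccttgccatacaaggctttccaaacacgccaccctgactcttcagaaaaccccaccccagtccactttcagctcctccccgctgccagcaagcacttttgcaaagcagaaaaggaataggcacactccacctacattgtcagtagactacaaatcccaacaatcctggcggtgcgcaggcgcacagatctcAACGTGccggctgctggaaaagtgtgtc
CLOCK: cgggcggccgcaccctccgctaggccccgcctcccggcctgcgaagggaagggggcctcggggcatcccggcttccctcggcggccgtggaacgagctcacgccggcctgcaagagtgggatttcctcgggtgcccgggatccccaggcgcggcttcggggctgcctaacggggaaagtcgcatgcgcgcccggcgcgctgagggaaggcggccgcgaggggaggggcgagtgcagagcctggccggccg

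PER1 carried an E-box at -166 and a ROR core at -137, counted from the start to the first base of the motif. The E-box variant was found in CRY2 at -166 and in NR1D1 at -28. CRY1, which was not detected, had both the variant (-79) and the E-box (-60), and PER3, also not detected, had D-boxes at -205 and -158. A ROR core stood at -77 in NR1D2 and at -119 before the start numbered 3 of CLOCK. The windows before the 2 starts of ARNTL searched, the start of DBP and the other searched starts of CLOCK and PER1 held none of the motifs. No cAMP response element was found before any of the 13 starts. Among 32851 mouse promoters of the same length, 6.02% held the E-box, 3.85% its variant, 0.819% the D-box, 14.0% the ROR core and 1.55% the cAMP response element. These matches describe the sequence in this window and say nothing of binding.

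**Figure D1:**
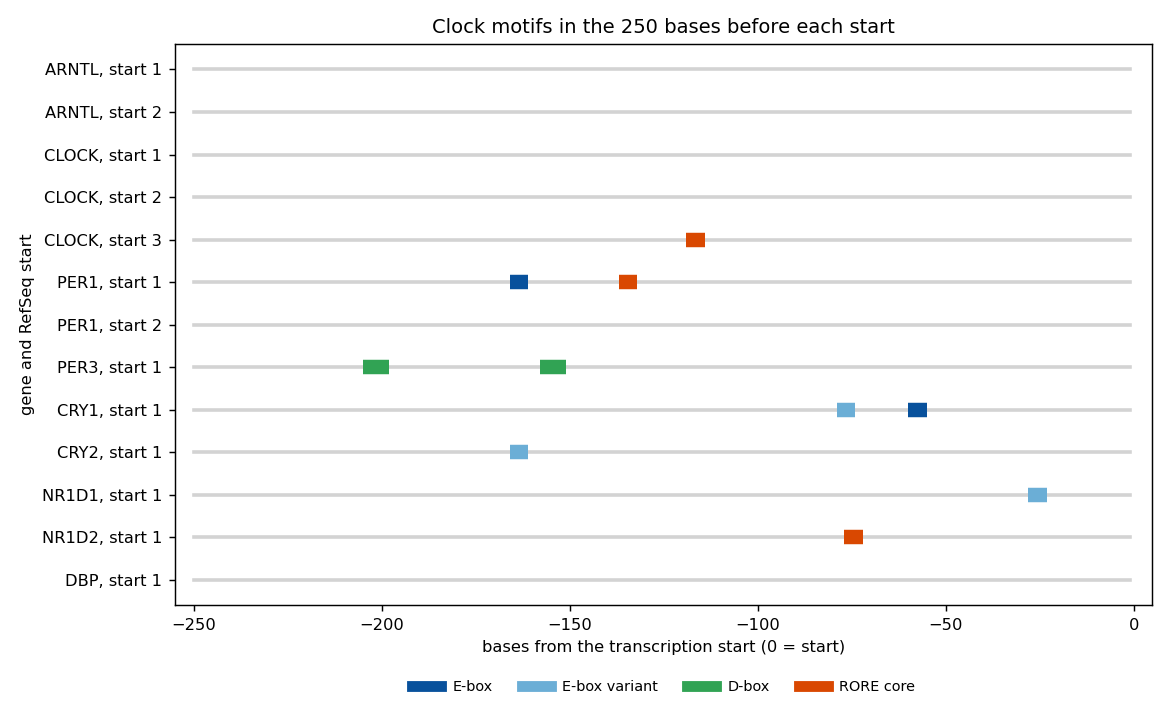
Positions of clock motifs in the 250 bases before each RefSeq start searched, with the distance from the start in bases on the x axis and a row for each gene and start. Colored blocks stand for motifs found on either strand, 7 genes hold at least 1, and the windows of ARNTL and DBP hold none.

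Exposure to CM moved clock genes in both directions and did so on arrays of both genotypes. NR1D1 and CRY2, repressors of different limbs of the loop, rose in both genotypes, CRY2 in MEKK1+/+ only just past the threshold, and PER2 fell in both. PER1 rose past the threshold on MEKK1+/+ arrays, and CLOCK fell past it on arrays labelled MEKK1-/-. In MEKK1+/+ cells 3 of the 10 genes rose, 1 fell and 6 did not pass the test (limma, Benjamini-Hochberg adjusted p under 0.05 over all genes), where 5.01% of all genes were called, 2.27% as higher and 2.75% as lower. On arrays labelled MEKK1-/- 2 rose, 2 fell and 6 did not pass, against 4.69% of all genes, 2.18% higher and 2.51% lower. Among the 6923 genes detected on every array, 10.6% and 9.98% were called. The median log2 difference over the 10 genes was 0.18 in MEKK1+/+ and 0.24 on arrays labelled MEKK1-/-, and that over all genes was -0.00 in both. The untreated and treated arrays did not overlap for 4 of the 10 genes in each genotype, as they did not for 9.70% of all genes in MEKK1+/+ and 10.4% on arrays labelled MEKK1-/-.

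**Figure D2:**
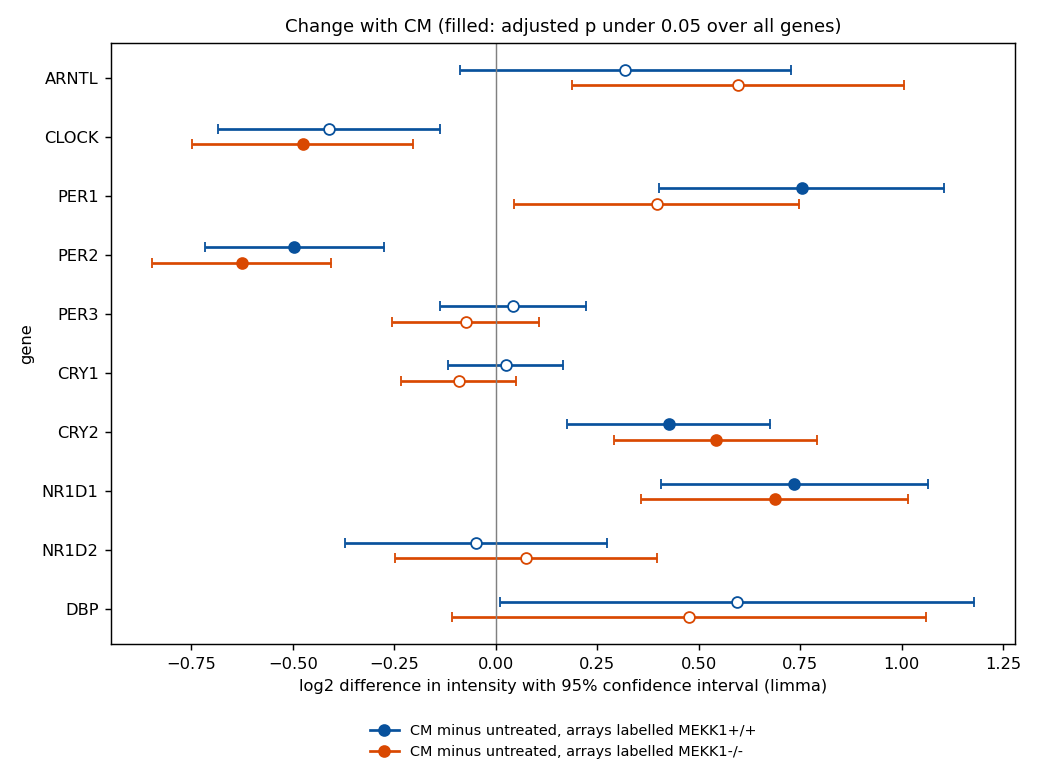
Change of each clock gene with CM as the log2 difference in intensity (x axis) with its 95% confidence interval, for MEKK1+/+ arrays and arrays labelled MEKK1-/- (n = 4 per group). Filled points passed the adjusted p threshold over all genes: PER1, PER2, CRY2 and NR1D1 in MEKK1+/+, and PER2, CRY2, NR1D1 and CLOCK on arrays labelled MEKK1-/-.

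Of the activators of the loop, CLOCK was lower with CM and passed the test on arrays labelled MEKK1-/-, while ARNTL was higher on average and did not pass. CLOCK, the histone acetyltransferase partner of the dimer, measured 9.23, 9.16, 9.03 and 8.74 in untreated MEKK1+/+ cells (replicates 1 to 4) and 8.73, 8.61, 8.82 and 8.35 with CM. Arrays labelled MEKK1-/- gave 9.21, 8.97, 9.13 and 9.11 untreated and 8.93, 8.37, 8.62 and 8.60 with CM. All treated arrays labelled MEKK1-/- were below all untreated ones, whereas in MEKK1+/+ cells untreated replicate 4 lay below treated replicate 3. CLOCK differed by -0.48 on arrays labelled MEKK1-/- (SE 0.13, limma adjusted p = 0.0465; 2-sided exact permutation p = 0.0286, the smallest that 4 arrays against 4 allow) and by -0.41 in MEKK1+/+ (SE 0.13, adjusted p = 0.0844; exact permutation p = 0.0571). The call on arrays labelled MEKK1-/- was lost without any of 11 of the 16 arrays (adjusted p up to 0.147) and held without MEKK1+/+ untreated replicates 1 and 4, MEKK1+/+ treated replicates 3 and 4 or the treated replicate 1 labelled MEKK1-/-. Without untreated replicate 4, the dimmest untreated MEKK1+/+ array, CLOCK differed by -0.51 in MEKK1+/+ and passed (adjusted p = 0.0278), as it did with the replicate number as a block (-0.41, adjusted p = 0.0384) and with array weights (-0.40, adjusted p = 0.0473), while the call on arrays labelled MEKK1-/- was lost under 5 of 11 other ways of processing or testing.

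ARNTL, the partner of CLOCK in the dimer, measured 9.01, 8.56, 8.98 and 9.24 untreated and 9.28, 9.39, 9.32 and 9.08 with CM in MEKK1+/+ cells. The values on arrays labelled MEKK1-/- were 8.29, 9.25, 8.86 and 9.08 untreated and 9.61, 9.05, 9.67 and 9.54 with CM. In each genotype 3 of the treated arrays were above every untreated array and 1 (replicate 4 in MEKK1+/+, replicate 2 labelled MEKK1-/-) lay among them. The differences, 0.32 in MEKK1+/+ (SE 0.19, 95% interval -0.09 to 0.73) and 0.60 on arrays labelled MEKK1-/- (SE 0.19, 95% interval 0.19 to 1.01), did not pass the threshold (limma adjusted p = 0.460 and 0.10). In MEKK1+/+ the sign turned on the values as deposited (-0.071), and on arrays labelled MEKK1-/- ARNTL passed with array weights (0.57, adjusted p = 0.0427).

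Of the PER genes, whose products form the negative limb with the CRY proteins, PER2 was lower with CM past the threshold in both genotypes and PER1 higher past it in MEKK1+/+. PER2 measured 8.13, 8.09, 8.24 and 7.91 in untreated MEKK1+/+ cells and 7.68, 7.38, 7.84 and 7.47 with CM. Under the MEKK1-/- label it measured 7.93, 8.20, 8.10 and 8.25 untreated and 7.62, 7.38, 7.55 and 7.43 with CM. Every treated array was below every untreated array of its genotype, and across both genotypes as well. PER2 fell by 0.50 on the log2 scale in MEKK1+/+ (SE 0.10, 1.41-fold lower, limma adjusted p = 0.0115; exact permutation p = 0.0286) and by 0.63 on arrays labelled MEKK1-/- (SE 0.10, 1.54-fold lower, limma adjusted p = 0.00280; exact permutation p = 0.0286). Both calls held with any array left out.

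PER1, known to react quickly to hormones and serum, measured 8.60, 8.90, 8.63 and 8.95 in untreated MEKK1+/+ cells and 9.48, 9.57, 9.30 and 9.74 with CM. The MEKK1-/- arrays, as labelled, gave 8.85, 8.78, 8.53 and 8.66 untreated and 8.64, 9.63, 8.94 and 9.20 with CM. In MEKK1+/+ all treated arrays were above all untreated ones, while the treated arrays labelled MEKK1-/- spread over 0.42 (SD, n = 4) and replicate 1 among them did not exceed its untreated group. PER1 rose by 0.75 in MEKK1+/+ (SE 0.16, 1.69-fold, limma adjusted p = 0.0152; exact permutation p = 0.0286). The difference on arrays labelled MEKK1-/- was 0.40 (SE 0.16, 95% interval 0.05 to 0.75, limma adjusted p = 0.230; exact permutation p = 0.143), and without treated replicate 1 it was 0.55 and passed (adjusted p = 0.0450). The MEKK1+/+ call was narrowly lost without untreated replicate 3 (0.71, adjusted p = 0.0548) or treated replicate 4 (0.68, adjusted p = 0.0540).

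PER3, the third of the family, ran from 6.69 to 7.07 over the 16 arrays and CRY1 from 6.47 to 6.83, all at or below the level without signal. Their differences with CM ran from -0.09 to 0.04, and none passed the test (smallest limma adjusted p = 0.590, for CRY1 on arrays labelled MEKK1-/-).

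CRY2, a relative of photolyases that binds and inhibits the CLOCK and ARNTL dimer, was higher with CM. It measured 8.22, 8.03, 7.99 and 8.39 in untreated MEKK1+/+ cells and 8.48, 8.68, 8.42 and 8.76 with CM. Its values on arrays labelled MEKK1-/- were 7.98, 8.09, 7.91 and 8.39 untreated and 8.43, 8.70, 8.70 and 8.71 with CM. All treated arrays were above all untreated ones in each genotype, although the gap between untreated replicate 4 and the lowest treated array was small in both (8.39 against 8.42 and 8.43). CRY2 rose by 0.43 in MEKK1+/+ (SE 0.12, 1.34-fold, limma adjusted p = 0.0492; exact permutation p = 0.0286) and by 0.54 on arrays labelled MEKK1-/- (SE 0.12, 1.46-fold, limma adjusted p = 0.0150; exact permutation p = 0.0286). The MEKK1+/+ call lay at the threshold and held only without MEKK1+/+ untreated replicate 4, MEKK1+/+ treated replicate 3, untreated replicate 4 labelled MEKK1-/- or treated replicate 1 labelled MEKK1-/-, the other 12 arrays each ending it (adjusted p up to 0.154). It was also lost under 7 of 11 other ways of processing or testing, down to 0.07 as deposited. The call on arrays labelled MEKK1-/- was lost without untreated replicate 3 (0.48, adjusted p = 0.0583) or treated replicate 4 (0.52, adjusted p = 0.0507).

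Of the REV-ERB receptors, which bind heme and repress ARNTL, NR1D1 passed the test in both genotypes and NR1D2 in neither. NR1D1 measured 7.84, 8.05, 7.62 and 8.26 in untreated MEKK1+/+ cells and 8.82, 8.42, 8.43 and 9.03 with CM. Arrays labelled MEKK1-/- had 8.12, 7.74, 8.17 and 8.07 untreated and 8.58, 8.89, 8.77 and 8.61 with CM. The treated and untreated arrays did not overlap in either genotype. NR1D1 rose by 0.74 in MEKK1+/+ (SE 0.15, 1.66-fold, limma adjusted p = 0.0120; exact permutation p = 0.0286) and by 0.69 on arrays labelled MEKK1-/- (SE 0.15, 1.61-fold, limma adjusted p = 0.0183; exact permutation p = 0.0286). The first call held with any array left out, and the second was lost without untreated replicate 2 (0.59, adjusted p = 0.0509), treated replicate 2 (0.63, adjusted p = 0.0650) or treated replicate 3 (0.67, adjusted p = 0.0545) labelled MEKK1-/-.

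NR1D2, its paralog, measured from 7.99 to 8.52 untreated and from 7.81 to 8.49 with CM in MEKK1+/+ cells, and from 8.02 to 8.36 untreated and from 8.02 to 8.46 with CM on arrays labelled MEKK1-/-. Its groups overlapped throughout. The differences were -0.05 (95% interval -0.37 to 0.27, limma adjusted p = 0.938) and 0.08 (95% interval -0.25 to 0.40, limma adjusted p = 0.900), so that changes within those intervals remain possible. The difference between NR1D1 and NR1D2 in their response was not tested.

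DBP, the output factor of the loop, measured 10.73, 11.60, 11.14 and 11.41 in untreated MEKK1+/+ cells and 11.89, 11.52, 11.62 and 12.23 with CM. With the MEKK1-/- label the values were 10.84, 10.92, 11.04 and 10.88 untreated and 10.55, 12.25, 11.27 and 11.50 with CM. The treated arrays labelled MEKK1-/- held both the highest and the lowest DBP of all 16, replicates 2 and 1. The differences of 0.59 in MEKK1+/+ (SE 0.27, 95% interval 0.01 to 1.18) and 0.48 on arrays labelled MEKK1-/- (SE 0.27, 95% interval -0.11 to 1.06) did not pass the threshold (limma adjusted p = 0.285 and 0.445).

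**Figure D3:**
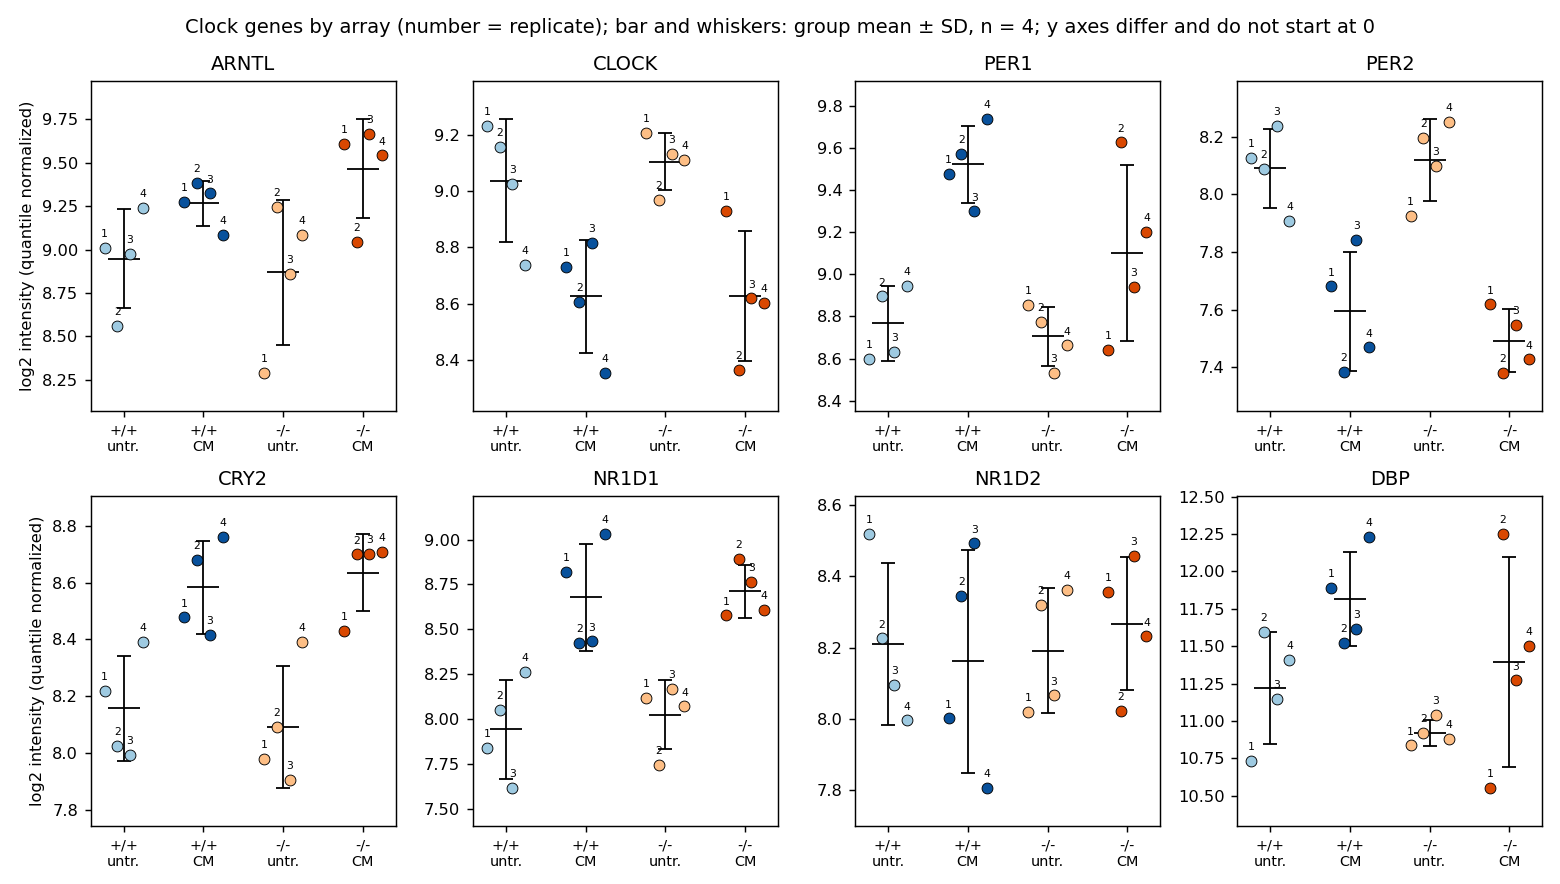
Normalized log2 intensity (y axis, with a range of its own in each panel) of the 8 detected clock genes on each array, grouped by genotype and medium. Points are arrays numbered by replicate, bars and whiskers are the mean ± SD of 4 arrays, and the treated PER2 arrays lie below all untreated ones while those of NR1D1 and CRY2 lie above.

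Between genotypes 0 of the 10 clock genes passed the test in either medium, where 0% of all genes were called in untreated cells and 0.00552% (1 gene) with CM. By the unadjusted limma p at 0.05, 0 of the 10 were below it in untreated cells and 1, PER1, with CM (1680 and 1466 of all genes). The genotype groups overlapped for all 10 in both media, whereas 4.61% of all genes did not overlap in untreated cells and 4.17% with CM. In untreated cells the differences, arrays labelled MEKK1-/- minus MEKK1+/+, ran from -0.30 (DBP, 95% interval -0.89 to 0.28) to 0.09 (PER3). PER1 with CM had the smallest p, with a mean of 9.10 ± 0.42 on arrays labelled MEKK1-/- against 9.52 ± 0.18 in MEKK1+/+ (SD, n = 4 each), a difference of -0.42 (SE 0.16, 95% interval -0.77 to -0.07, limma adjusted p = 0.568; exact permutation p = 0.143). Ordered by mean, PER1 was highest in MEKK1+/+ with CM, then on arrays labelled MEKK1-/- with CM, then in untreated MEKK1+/+ cells (8.77 ± 0.18) and last on untreated arrays labelled MEKK1-/- (8.71 ± 0.14), and each of these groups overlapped its neighbor in that order.

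The test of whether the response itself differed between genotypes (the interaction of genotype with CM) called 0 of the 10, as it called 0% of all genes (473 of which had an unadjusted p under 0.05, and 0 of the 10). PER1, called in MEKK1+/+ and not on arrays labelled MEKK1-/-, had an interaction of -0.36 (95% interval -0.85 to 0.14, limma adjusted p = 1.00), and on the values as deposited it was -0.03. CLOCK, called on arrays labelled MEKK1-/- and not in MEKK1+/+, had an interaction of -0.06 (95% interval -0.45 to 0.32). For NR1D1, PER2 and CRY2 the interactions were -0.05 (95% interval -0.51 to 0.42), -0.13 (95% interval -0.44 to 0.18) and 0.12 (95% interval -0.24 to 0.47). The widest interval was that of DBP, from -0.94 to 0.71.

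**Figure D4:**
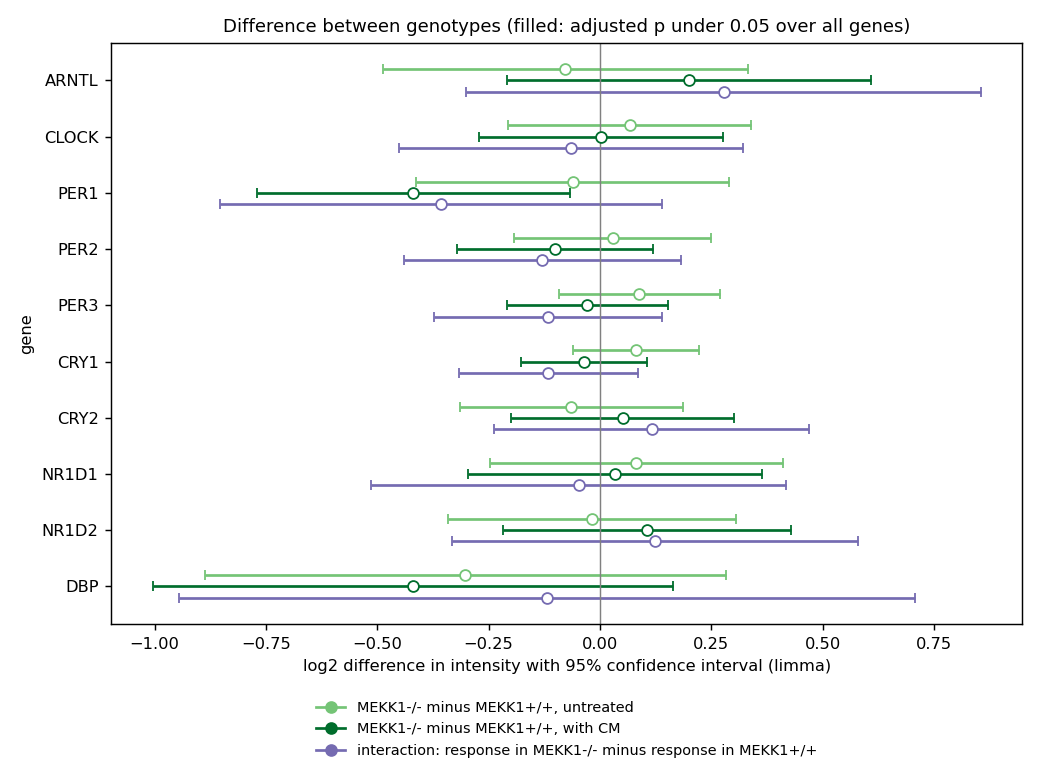
Difference between genotypes for each clock gene in untreated cells and with CM, and the interaction, as log2 differences (x axis) with 95% confidence intervals (n = 4 arrays per group). No point is filled, since none passed the adjusted p threshold, and the interval of PER1 with CM, from -0.77 to -0.07, leaves out 0.

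Array brightness moved with the MEKK1+/+ comparison and with the order of arrays inside groups. On the dimmest array of each group PER1 was the highest of its group in 4 of 4 groups, NR1D1 in 3 and NR1D2 the lowest in 4, and PER2, ARNTL and CLOCK were each the lowest in 3. Among the treated arrays labelled MEKK1-/-, replicate 2, the dimmest, was highest for PER1, NR1D1 and DBP and lowest for PER2, ARNTL, CLOCK and NR1D2, and replicate 1 was lowest for PER1, NR1D1, DBP and CRY2 and highest for PER2 and CLOCK. On the treated MEKK1+/+ arrays replicate 4, again the dimmest, was highest for PER1, NR1D1, DBP and CRY2 and lowest for ARNTL, CLOCK and NR1D2. The part of brightness in these orders was not tested, nor was its part in the differences between untreated and treated MEKK1+/+ arrays. Untreated MEKK1+/+ replicate 4 had a median of 114, inside the treated range. Its PER1 (8.95), NR1D1 (8.26) and CRY2 (8.39) were the highest of the untreated MEKK1+/+ arrays and below all 4 treated ones. Its PER2 (7.91) was the lowest of the untreated arrays and above all 4 treated ones. Its CLOCK (8.74), also the lowest untreated value, lay among the treated arrays.

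With no scaling between arrays the median of all genes shifted by -0.28 between untreated and treated MEKK1+/+ arrays, and by -0.02 between those labelled MEKK1-/-. On those values PER2 differed by -0.86, CLOCK by -0.82, NR1D1 by 0.41, PER1 by 0.37 and CRY2 by 0.07 in MEKK1+/+, each with the sign it had after normalization, and PER2 alone passed (limma adjusted p = 0.0445). On arrays labelled MEKK1-/- the same genes differed by -0.58, -0.49, 0.65, 0.34 and 0.49, and none of the 10 passed.

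**Figure D5:**
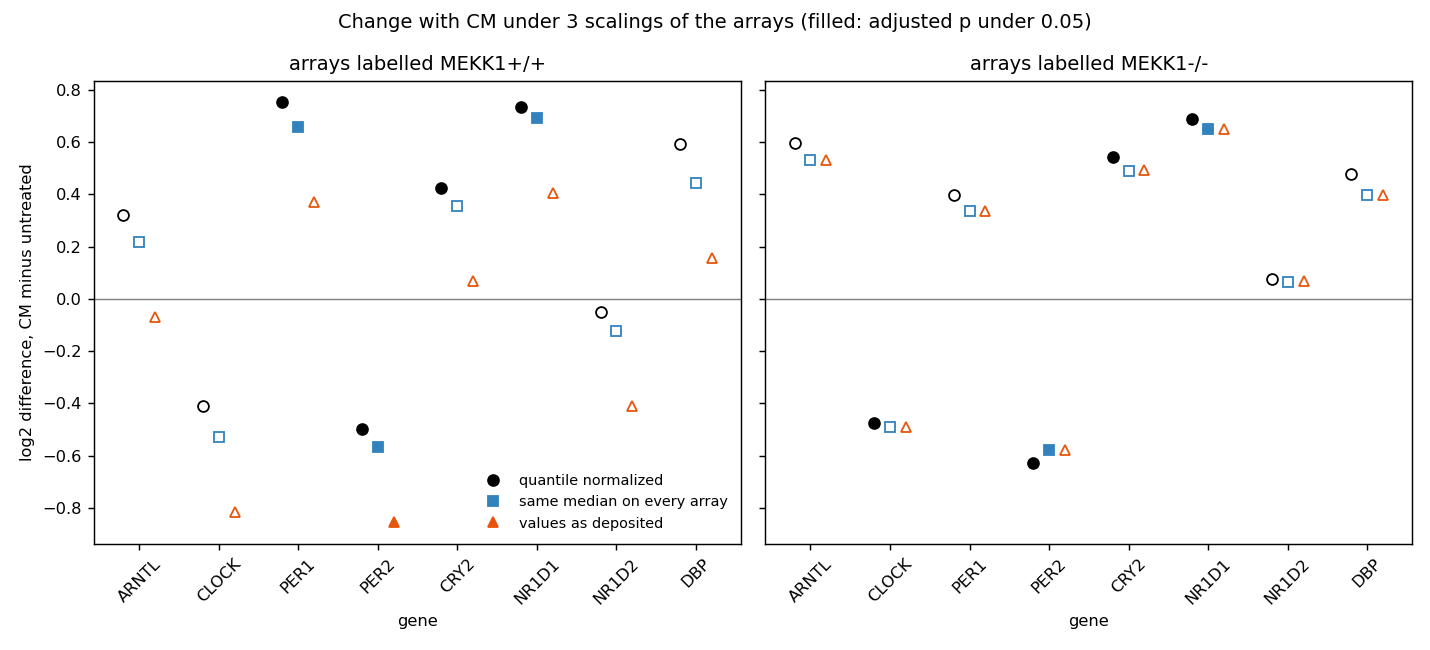
Log2 difference with CM (y axis) of the 8 detected clock genes under 3 scalings of the arrays: quantile normalized, shifted to the same median, and as deposited. Filled points passed the adjusted p threshold, and the scalings part most in MEKK1+/+, where ARNTL runs from 0.32 to -0.071.

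Further genes of the clock were counted from a list of 19, of which 17 were in the table, 9 of them detected on every array and 7 on none. In MEKK1+/+ cells 2 of the 17 rose with CM and 0 fell, and on arrays labelled MEKK1-/- 1 rose and 0 fell. Among all genes 2.27% and 2.18% were called as higher, and 2.75% and 2.51% as lower. In each genotype 6 of the 17 had an unadjusted p under 0.05, as had 3049 and 2940 of all 18132 genes. BTRC, a subunit of the ubiquitin ligase that marks PER proteins for degradation, rose in both, by 0.44 (SE 0.10, limma adjusted p = 0.0147) and 0.40 (SE 0.10, limma adjusted p = 0.0251). BHLHB2, now Bhlhe40, a repressor that competes for E-boxes, measured 11.09, 10.88, 10.80 and 11.00 in untreated MEKK1+/+ cells and 11.57, 11.39, 12.12 and 11.65 with CM, without overlap, and rose by 0.74 (SE 0.19, limma adjusted p = 0.0317). Under the MEKK1-/- label it differed by 0.47 (limma adjusted p = 0.202). The MEKK1+/+ call of BHLHB2 was lost without untreated replicate 2 or 3 or treated replicate 3 or 4 (adjusted p from 0.0676 to 0.0962), that of BTRC without untreated replicate 3 (0.0510) or treated replicate 4 (0.0524), and the other call of BTRC without untreated replicate 1 or 4 or treated replicate 2, 3 or 4 labelled MEKK1-/- (0.0601 to 0.0820). The calls of BTRC were also lost under 4 of 11 other ways of processing or testing in each genotype, its MEKK1+/+ difference being 0.079 as deposited, and that of BHLHB2 under 3. GM129, now Ciart, a repressor of the CLOCK and ARNTL dimer, differed by -0.25 and -0.38 (limma adjusted p = 0.272 and 0.0690). CSNK1E, a kinase that phosphorylates PER proteins, differed by 0.34 and 0.28 (limma adjusted p = 0.0691 and 0.144), and its relative CSNK1D by 0.23 on arrays labelled MEKK1-/- (limma adjusted p = 0.215). The remaining differences with an unadjusted p under 0.05 were TEF, a relative of DBP (-0.32), and the kinase GSK3B (0.25) in MEKK1+/+, and RORB, a ROR receptor (0.24, detected on 2 of the 4 untreated arrays), on arrays labelled MEKK1-/-.

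Between genotypes 0 of the 17 passed. Unadjusted p values under 0.05 were found in untreated cells for GSK3B (0.37, limma adjusted p = 0.465) and BTRC (-0.21), and with CM for BTRC (-0.25). The same held in untreated cells for FBXW11, a relative of BTRC, and BHLHB3, now Bhlhe41, and with CM for ARNTL2, a paralog of ARNTL, but these 3 were at or below the level without signal on all 16 arrays, so their differences could not be judged.

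Of 9 genes that the clock is known to drive, 6 were detected on every array, and 1 rose in each genotype. Among all genes 2.27% were called as higher in MEKK1+/+ and 2.18% on arrays labelled MEKK1-/-. Of the genes detected on every array, 10.6% and 9.98% were called in either direction. The output gene that rose was POR, the reductase that passes electrons to cytochrome P450 enzymes. It measured 9.37, 9.78, 9.70 and 10.13 in untreated MEKK1+/+ cells against 10.56, 10.47, 10.03 and 10.38 with CM, and 9.99, 9.84, 9.84 and 9.73 against 10.46, 10.80, 10.38 and 10.55 on arrays labelled MEKK1-/-. It rose by 0.62 (SE 0.14, limma adjusted p = 0.0225) with 1 treated array below an untreated one, and by 0.70 (SE 0.14, limma adjusted p = 0.0117) with no overlap. The first of these calls was lost without untreated replicate 1, 2 or 3 or treated replicate 1, 2 or 4 (adjusted p from 0.0518 to 0.0651), and the second held with any array left out. KLF9, a transcription factor, and ALAS1, the first enzyme of heme synthesis, each differed by 0.40 in MEKK1+/+ (limma adjusted p = 0.121 and 0.197). Between genotypes 0 of the 9 passed, and GYS2, the liver form of glycogen synthase, had an unadjusted p under 0.05 with CM but was detected on none of the 16 arrays.

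A list of 10 genes that glucocorticoids or cAMP induce or that carry these signals, such as the glucocorticoid receptor gene NR3C1, was counted because both signals act on PER1, and 8 of the 10 were in the table and 3 detected on every array. None passed as higher with CM, where 2.27% of all genes did in MEKK1+/+ and 2.18% on arrays labelled MEKK1-/-. As lower, 1 passed in MEKK1+/+ (2.75% of all genes) and 0 on arrays labelled MEKK1-/- (2.51%). The 3 detected on every array were TSC22D3, FKBP5 (-0.005 and 0.11, not called) and SGK1 (-0.74 and -0.25, not called). NR4A1 and SNF1LK, now Sik1, were detected on none and NR4A2, CREM and NR3C1 on only some arrays, so changes in them could not be judged. TSC22D3, a glucocorticoid-induced gene also known as GILZ, fell by 0.56 in MEKK1+/+ (SE 0.15, limma adjusted p = 0.0451; exact permutation p = 0.0571), and differed by -0.38 on arrays labelled MEKK1-/- (SE 0.15, limma adjusted p = 0.20). Its MEKK1+/+ call was lost without any of 11 of the 16 arrays (adjusted p up to 0.142) and held without MEKK1+/+ untreated replicate 4, MEKK1+/+ treated replicate 2 or the replicates labelled MEKK1-/- 1 (untreated), 1 and 2 (treated), and it was lost under 6 of 11 other ways of processing or testing.

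The genes whose pattern over the 16 arrays was most like that of a called clock gene were found by Pearson correlation of the normalized log2 values, a description over arrays that share group means and scaling. For PER2 they were LOC100041103 (r = 0.965), SMAD2, a transducer of TGF-beta signals (0.962), and TIMP3, an inhibitor of metalloproteinases (0.960). For CLOCK they were RAN, the GTPase of nuclear transport (0.961), HNRPC, now Hnrnpc, an RNA-binding protein (0.943), and TAF9B, a subunit of the general transcription machinery (0.942). For NR1D1 they were LOC100047427 (0.950), DCBLD1 (0.920) and 1500010J02RIK, now Ctc1 (0.918). PER1 was most like 9530096D07RIK, now Rab42 (0.921), 1810049H13RIK, now Oxld1 (0.917), and LIN7B (0.914, detected on 6 arrays). CRY2 was most like RAPGEFL1 (0.903, detected on 7 arrays), 3010026O09RIK, now Mrnip (0.902), and 1110012L19RIK, now Eola1 (0.899).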

How the data were processed

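Illumina Mouse 8 arrays of 16 fibroblast cultures were analysed, grouped by genotype and treatment from the sample labels. The authors deposited 1 intensity per gene symbol and array on a linear scale, which the labels say a core facility had normalized by a method not given in the sources used here, nor is the background treatment or the combination of probes. Array medians differed, so log2 values were quantile normalized. A single fit in limma 3.58.1 (lmFit, eBayes; R 4.3.3) held all 4 groups, with 12 residual degrees of freedom, Benjamini-Hochberg adjustment over 18132 genes and adjusted p under 0.05 as the threshold. For single genes a 2-sided exact permutation of 4 arrays against 4 was added. Precision is limited by the number of arrays. The limma steps were tested on simulated data in which arrays were independent and the changed genes were shifted by a fixed amount. That simulation held no shared mice and no difference in array brightness, so it does not cover these limits.

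The clock genes and gene lists were chosen with earlier results of these data known. Other clock, output and input genes were named where an adjusted or unadjusted p was under 0.05, and the 3 genes most like each called member were named outside the lists. Marker lists for epithelial and endothelial cells were also measured: epithelial markers summed to at most 1523 on MEKK1+/+ arrays and to up to 11720 on those labelled MEKK1-/-, and endothelial markers to at most 1544. Names and promoters came from RefSeq (GRCm38.p6). Alternatives were other scalings, the z-test on z-scores named by the study, a filter on dim genes, a pseudocount of 16, only the groups compared, trend and robust variance, array weights, a replicate block and each array left out.

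Within a group the arrays correlated at 0.979 to 0.996, and 0 columns were identical. After group means were removed, same-numbered untreated and treated arrays labelled MEKK1-/- correlated at 0.505, 0.403, 0.219 and 0.251. The MEKK1+/+ values were -0.04, 0.48, 0.12 and 0.58. Differently numbered arrays were not compared, so these values do not establish that the numbers pair the arrays. The main limma fit and the exact permutations took the arrays as unpaired, and the replicate block is the alternative that pairs them.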

Additional observations from a re-analysis of the deposited data

Results flagged for a closer look

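Among 32 groups of 4 arrays (8 detected clock genes in 4 groups), 1 held an array far from the other 3. CRY2 on the treated array labelled MEKK1-/- replicate 1 was 8.43, the nearest of the others was 8.70, and that gap was 0.966 of the range of the group, above the 95% critical value of Dixon's test. Chance alone marks about 1 in 20 such groups. The same array had the lowest PER1, NR1D1 and DBP of its group and the highest PER2 and CLOCK.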

How the results depend on the processing

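In MEKK1+/+ cells 4 clock genes passed with CM. The count was 1 on the values as deposited (PER2), 1 when only the groups compared were fitted (PER1), 0 by the z-test on z-scores, and from 2 to 5 with each array left out. It was 3, without CRY2, with the same median on every array, z-scores, a pseudocount of 16 or trend and robust variance, 4 with the filter on dim genes, and 5, with CLOCK added, with array weights. It was 2 (NR1D1 and PER2) without MEKK1+/+ untreated replicate 3 or treated replicate 4. On arrays labelled MEKK1-/- 4 passed as well. That count was 0 on the values as deposited, 2 with the same median on every array (NR1D1 and PER2), 0 by the z-test on z-scores, 3, without CLOCK, with z-scores or trend and robust variance, 4 with the filter, the pseudocount or only the groups compared, 5, with ARNTL added (adjusted p = 0.0427), with array weights, and from 2 to 5 with each array left out. It was 2 without untreated replicate 2 or 3 or treated replicate 2, 3 or 4, and 5, with PER1 added, without treated replicate 1. The cause of these differences was not tested. A replicate block, which pairs arrays by number, gave 5 and 4 calls, adding CLOCK in MEKK1+/+ (adjusted p = 0.0384 over all arrays and 0.00876 within the genotype), and ended the call of TSC22D3 there in the fit of all arrays (adjusted p = 0.0675). It changed no other call named in the report. Over all 11 settings the call of TSC22D3 was lost under 6 (adjusted p up to 0.309), those of BTRC under 4 in each genotype, that of BHLHB2 under 3 and those of POR under 3 in MEKK1+/+ and 2 on arrays labelled MEKK1-/-. ARNTL in MEKK1+/+ turned to -0.071 as deposited. NR1D2 there ranged from -0.16 to 0.070 with each array left out, above 0 without untreated replicate 1, treated replicate 1 or treated replicate 4. The signs of PER1, PER2, CRY2, CLOCK, NR1D1 and DBP with CM held in both genotypes under every alternative run. Genotype and interaction counts were 0 throughout, but the signs of these differences were less stable. For the detected genes 22 were followed, leaving out the interaction of PER1 and its genotype difference with CM. Of these, 8 changed sign as deposited and 8 with the same median on every array. With z-scores 4 changed sign, with array weights 4, and with an array left out up to 5. PER3 and CRY1, at or below the level without signal, could not be judged.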
